A study of Mus musculus with 8 samples.

Results

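The 10 genes here, of the JAK kinases, tyrosine phosphatases and PIAS proteins, were followed through mouse embryonic fibroblasts (MEFs) with and without Stat3, with and without oncostatin M (OSM). They are the kinases Jak1, Jak2, Jak3 and Tyk2, the phosphatases Ptpn1, Ptpn2, Ptpn6 and Ptpn11, and the PIAS proteins Pias1 and Pias3. Every probe set whose only gene symbol in the platform annotation is among these names was taken, which gave 13 probe sets of 10 genes among 12422 probe sets, of which 10833 carry a single symbol. A further probe set that shares the Jak3 symbol with another gene was left out by that rule.

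The arrays measured total RNA on an Affymetrix platform, as log2 values per probe set made by the authors with GCRMA. The 4 groups were Stat3 KO (STAT3-/-) MEFs with OSM, Stat3 KO MEFs untreated, Stat3 WT (STAT3+/+) MEFs with OSM and Stat3 WT MEFs untreated, with 2 arrays each. All cells came from spontaneously immortalised lines grown with 10% serum, and OSM was given at 20 ng/ml for 30 minutes. The labels do not say how many lines stand behind each genotype, so the loss of Stat3 and other differences between the lines cannot be told apart. The titles number the arrays of each group 02 and 03, as in STAT3+/+ MEF cell line 02. In the titles of treated cells the number follows the treatment instead. No source used here says whether the number marks a line, a culture or a repeat. A pair of values below is that of number 2 followed by that of number 3.

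OSM belongs to the IL-6 family of cytokines and signals through receptors that contain gp130, to which JAK kinases are bound. On ligand binding the JAKs phosphorylate the receptor and the transcription factor Stat3, which then enters the nucleus. Tyrosine phosphatases of the PTPN family remove such phosphates from JAKs, STATs or receptors, except that Ptpn11 (Shp2) also carries the signal on to the Ras-ERK chain. PIAS proteins are SUMO ligases that bind STATs and other transcription factors, and Pias3 is known as a partner that holds back Stat3.

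The Stat3 probe sets and the cell type markers were read first. Probe set 99099_at of Stat3 read 7.81 to 9.17 on the 4 Stat3 KO arrays and 10.11 to 11.94 on the 4 Stat3 WT arrays. Probe set 99100_at read 2.76, 2.86 and 2.94 on 3 Stat3 KO arrays but 7.30 on the number 3 Stat3 KO array with OSM, against 9.80 to 12.57 on Stat3 WT arrays. Neither set of values overlapped between genotypes, though 1 Stat3 KO array stood apart from the other 3 in the second probe set. Of 13 fibroblast marker genes 11 had a probe set above the filter, while the single Thy1 and Vim probe sets stayed below a log2 value of 5 on every array. Of 22 leukocyte marker probe sets 19 lay below 5 on all arrays, all 3 of Ptprc among them, and the other 3 belong to Csf1r and Vav1. Of the epithelial marker probe sets 5 of 8 lay below 5 on all arrays, and of the endothelial ones 6 of 8. The summed level of the leukocyte list, as log2, lay between 10.14 and 11.16 in Stat3 KO and between 10.77 and 11.19 in Stat3 WT.

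Of the 13 probe sets 8, those of 6 genes, passed the filter of a log2 value of at least 5 on at least 2 arrays. They are Jak1, Jak2 (101457_at), Ptpn1, Ptpn2, Pias1 and 3 probe sets of Pias3. The remaining 5 were dim, namely a second Jak2 probe set and those of Jak3, Tyk2, Ptpn6 and Ptpn11. The filter took 6756 of 12422 probe sets in all. In bulk samples, fewer cells of a type and less RNA per cell cannot be told apart.

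**Figure D1:**
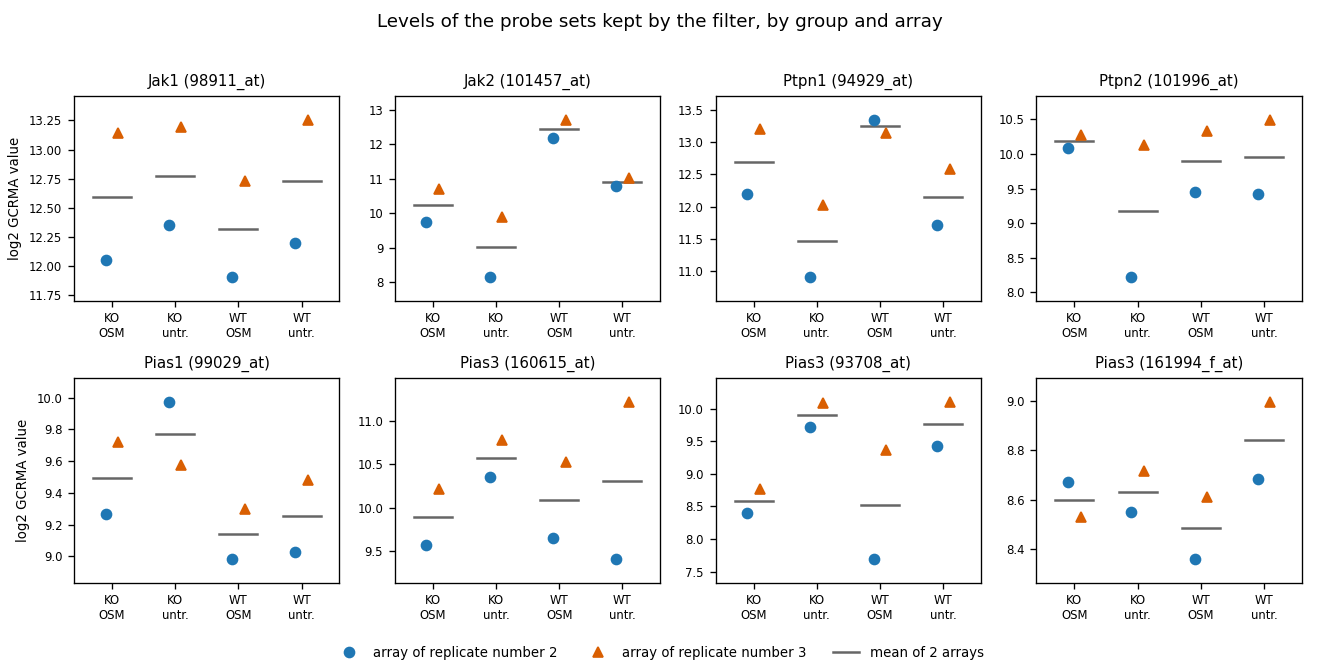
Log2 GCRMA value (vertical axis) of the 8 probe sets above the filter on each of the 8 arrays, by group; circles are number 2 and triangles number 3, and each bar is a group mean. Jak2 lies lowest in Stat3 KO cells without OSM (8.15 and 9.88) and highest in Stat3 WT cells with OSM (12.18 and 12.71).

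Jak2 is the kinase that many cytokine and hormone receptors use. Probe set 101457_at of Jak2 read 9.75 and 10.71 in Stat3 KO with OSM, 8.15 and 9.88 in Stat3 KO untreated, 12.18 and 12.71 in Stat3 WT with OSM and 10.78 and 11.02 in Stat3 WT untreated. Every Stat3 KO array lay below every Stat3 WT array. Ptpn1 (PTP1B), a phosphatase that acts on Jak2 and Tyk2, read 12.19 and 13.21 in Stat3 KO with OSM, 10.91 and 12.02 in Stat3 KO untreated, 13.35 and 13.15 in Stat3 WT with OSM and 11.72 and 12.58 in Stat3 WT untreated. Within each genotype and number, the OSM array was the higher of the pair.

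Pias3 has 3 probe sets, which did not read alike. Probe set 93708_at of Pias3 read 8.40 and 8.77 in Stat3 KO with OSM, 9.72 and 10.09 in Stat3 KO untreated, 7.69 and 9.36 in Stat3 WT with OSM and 9.42 and 10.10 in Stat3 WT untreated. Each of its 4 OSM arrays lay below each of its 4 untreated arrays, by as little as 9.36 against 9.42, a separation seen in 1 of 8 members and 3.06% of all probe sets. Probe set 160615_at of Pias3 read 9.57 and 10.21 in Stat3 KO with OSM, 10.36 and 10.78 in Stat3 KO untreated, 9.65 and 10.53 in Stat3 WT with OSM and 9.41 and 11.22 in Stat3 WT untreated. Probe set 161994_f_at of Pias3 read 8.67 and 8.53 in Stat3 KO with OSM, 8.55 and 8.72 in Stat3 KO untreated, 8.36 and 8.61 in Stat3 WT with OSM and 8.68 and 8.99 in Stat3 WT untreated. Neither of these separated the OSM arrays from the untreated ones.

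The promoters of Jak2, Ptpn1 and Pias3 are shown because these 3 genes have the largest OSM differences among the genes above the filter. They are RefSeq windows of build GRCm38.p6, from 250 bases before to 50 after a gene start, on the plus strand. Jak2 lies at chr19:29251553-29251852, Ptpn1 at chr2:167932077-167932376, and Pias3 has starts at chr3:96696125-96696424 and chr3:96696826-96697125. Capitals mark matches, on either strand, to the GC box GGGCGG and to CCAAT.
Jak2: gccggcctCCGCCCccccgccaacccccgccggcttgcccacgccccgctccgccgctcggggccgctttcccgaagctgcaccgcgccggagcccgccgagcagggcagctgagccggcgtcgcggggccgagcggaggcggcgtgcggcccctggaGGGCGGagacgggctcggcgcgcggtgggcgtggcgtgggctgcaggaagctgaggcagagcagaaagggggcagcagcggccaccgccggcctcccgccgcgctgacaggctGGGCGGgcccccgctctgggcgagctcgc
Ptpn1: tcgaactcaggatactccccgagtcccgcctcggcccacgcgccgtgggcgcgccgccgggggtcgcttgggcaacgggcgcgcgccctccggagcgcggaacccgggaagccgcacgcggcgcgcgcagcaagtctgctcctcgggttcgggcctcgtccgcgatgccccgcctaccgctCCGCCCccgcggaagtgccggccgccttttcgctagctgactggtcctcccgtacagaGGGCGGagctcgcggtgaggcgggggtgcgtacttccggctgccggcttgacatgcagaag
Pias3, first start: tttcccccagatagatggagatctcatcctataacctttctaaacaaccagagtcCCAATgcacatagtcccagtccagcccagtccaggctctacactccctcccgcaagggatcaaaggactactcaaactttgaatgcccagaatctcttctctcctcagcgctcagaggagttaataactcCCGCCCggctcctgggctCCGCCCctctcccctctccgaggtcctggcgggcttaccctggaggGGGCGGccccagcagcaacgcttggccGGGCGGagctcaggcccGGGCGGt
Pias3, second start: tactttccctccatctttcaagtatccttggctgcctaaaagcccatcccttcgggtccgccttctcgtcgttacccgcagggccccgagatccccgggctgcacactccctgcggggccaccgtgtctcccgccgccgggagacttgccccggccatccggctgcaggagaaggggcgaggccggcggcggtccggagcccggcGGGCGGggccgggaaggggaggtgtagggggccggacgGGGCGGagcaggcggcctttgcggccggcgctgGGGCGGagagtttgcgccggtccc
The Jak2 window holds 3 GC boxes and the Ptpn1 window 2. The first Pias3 window holds 5 GC boxes and 1 CCAAT, and the second 3 GC boxes.

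Windows of 9 of the 10 genes, 10 in all, were searched on both strands, and the Ptpn2 window was not analysed here. GGGCGG was found in 10 of 10 windows, against 35.7% of the 32851 RefSeq windows of the same length. The 4 windows printed are 60 to 81% G and C, and the median of all windows is 52.7%. The STAT motif TTCNNNGAA was found in 0 of 10, against 8.3% of all windows. TGANTCA, the AP-1 motif, was found in 0 of 10, against 7.81%. The CRE motif TGACGTCA was found in 2 of 10, those of Jak1 and Ptpn11, against 1.79%. CCAAT was found in 3 of 10, those of Jak1, Tyk2 and Pias3, against 37.4%. No motif searched contains another.

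With OSM the 8 probe sets were compared with untreated cells within each genotype and over both. The question was which parts of the JAK-STAT machinery differ in RNA after 30 minutes of cytokine, with and without Stat3. Averaged over genotype, Jak2 was 1.38 log2 units higher with OSM (SE 0.45, 95% interval 0.28 to 2.49), or 2.61-fold, with means of 11.34 ± 1.35 with OSM and 9.96 ± 1.30 untreated (SD, n = 4 each). Ptpn1 was 1.16 higher (SE 0.38, interval 0.23 to 2.10), or 2.24-fold, at 12.97 ± 0.53 with OSM and 11.81 ± 0.70 untreated. Probe set 93708_at of Pias3 was lower, with a difference of -1.28 (SE 0.43, interval -2.31 to -0.24), or 2.42-fold. Its means were 8.56 ± 0.70 with OSM and 9.83 ± 0.33 untreated. The SDs in this paragraph pool both genotypes and both array numbers, so they are not the spread of replicates.

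None of these passed limma's test over all probe sets. With OSM averaged over genotype, 0 of 8 members and 0% of 6756 probe sets had an adjusted p under 0.05, while 255 probe sets, 3 of them members, had an unadjusted p under 0.05. For Jak2, Ptpn1 and Pias3 (93708_at) the unadjusted limma p was 0.022, 0.0224 and 0.0235, and the adjusted p rounded to 1 in each. With the array number as a block, their adjusted limma p was 0.151, 0.172 and 0.169, and 8 probe sets passed, 0.118% of those tested, with no member among them. In 5 of 8 members the number 3 array lay above the number 2 array in all 4 groups, as it did in 33.7% of all probe sets, and the block fits that as 1 difference shared by all groups.

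Within each number, the OSM minus untreated difference of Jak2 was 1.61 and 0.83 in Stat3 KO and 1.40 and 1.69 in Stat3 WT. For Ptpn1 it was 1.28 and 1.19 in Stat3 KO and 1.63 and 0.56 in Stat3 WT. For Pias3 (93708_at) it was -1.32 and -1.32 in Stat3 KO and -1.73 and -0.74 in Stat3 WT. These were 3 of 8 members whose 4 differences all reached 0.5 in 1 direction, a rule chosen after the data were seen, against 3.17% of all probe sets tested (2.41% higher and 0.755% lower). Among all probe sets 1.66% had a larger averaged difference than Jak2, 2.35% a larger one than Ptpn1, and 0.34% a lower one than Pias3 (93708_at).

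**Figure D2:**
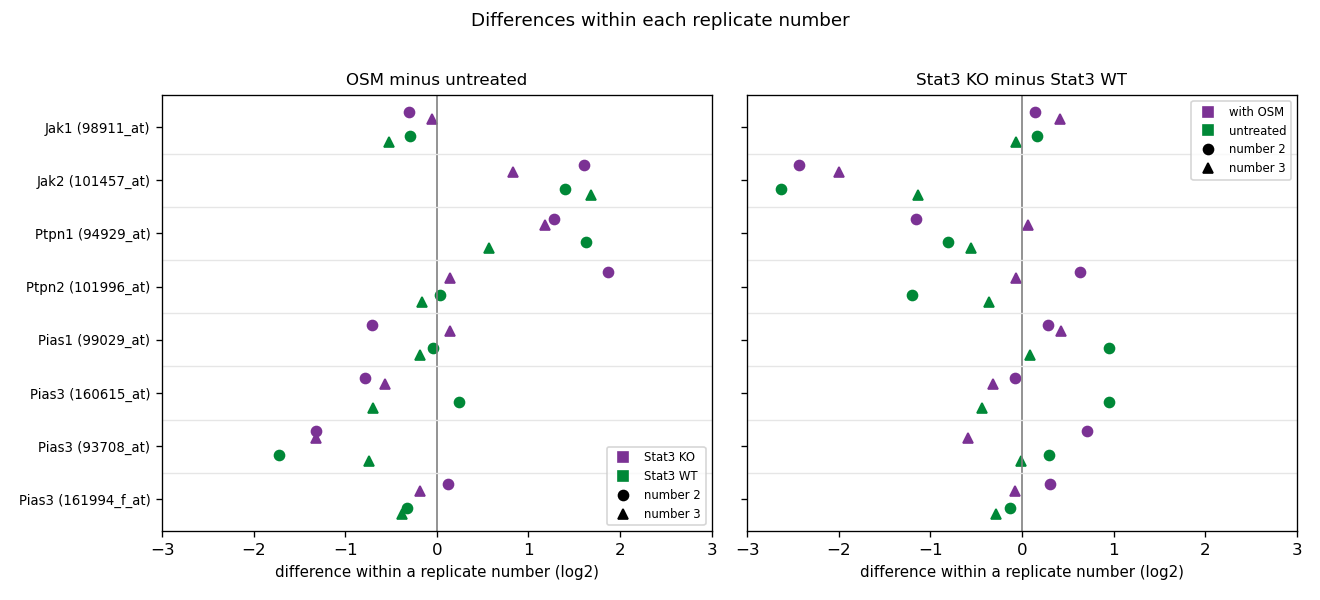
Difference in log2 value within each array number for the 8 probe sets above the filter: left, OSM minus untreated in Stat3 KO (purple) and Stat3 WT (green); right, Stat3 KO minus Stat3 WT with OSM (purple) and untreated (green). Circles are number 2 and triangles number 3; all 4 OSM differences are above 0 for Jak2 and Ptpn1, and all 4 genotype differences are below 0 for Jak2.

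The other members gave smaller or mixed OSM differences. Ptpn2 (TC-PTP), which acts on Jak1, Jak3 and nuclear STATs, read 10.09 and 10.27 in Stat3 KO with OSM, 8.22 and 10.14 in Stat3 KO untreated, 9.46 and 10.34 in Stat3 WT with OSM and 9.42 and 10.49 in Stat3 WT untreated. Its within-number difference was 1.87 in number 2 Stat3 KO cells and between -0.16 and 0.14 in the other 3 pairs. In the fit without the block, the averaged value of 0.47 became -0.0075 when the untreated number 2 Stat3 KO array was left out. That omission also leaves the array numbers unbalanced. Jak1, the kinase that gp130 signalling needs, read 12.05 and 13.14 in Stat3 KO with OSM, 12.36 and 13.19 in Stat3 KO untreated, 11.90 and 12.73 in Stat3 WT with OSM and 12.20 and 13.26 in Stat3 WT untreated. All 4 of its OSM differences were below 0, from -0.53 to -0.05, with an averaged value of -0.29 (interval -1.31 to 0.72) that did not pass. With the block the Jak1 interval was -0.59 to -0.0012, with an unadjusted limma p of 0.0493 and an adjusted p of 0.38. In that fit 884 of 6756 probe sets, 4 of them members, had an unadjusted p under 0.05.

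Pias1, a SUMO ligase of the same family as Pias3, read 9.27 and 9.72 in Stat3 KO with OSM, 9.97 and 9.57 in Stat3 KO untreated, 8.98 and 9.30 in Stat3 WT with OSM and 9.03 and 9.48 in Stat3 WT untreated. Its averaged OSM difference was -0.20 (interval -0.81 to 0.42), and its groups overlapped. The probe sets 160615_at and 161994_f_at of Pias3 gave averaged OSM differences of -0.45 and -0.19, against -1.28 for 93708_at. The 3 probe sets share a gene and are no replicates of each other.

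The OSM difference was also taken within each genotype. For Jak2 it was 1.22 in Stat3 KO and 1.55 in Stat3 WT (SE 0.64 each), and the difference between these was -0.33 (SE 0.91, interval -2.54 to 1.88). For Ptpn1 it was 1.23 in Stat3 KO and 1.1 in Stat3 WT, with a difference of 0.14 (interval -1.73 to 2.01). For Pias3 (93708_at) it was -1.32 in Stat3 KO and -1.23 in Stat3 WT, with a difference of -0.08 (interval -2.16 to 1.99). The intervals are wide, and they hold differences as large as the OSM values themselves. Without the block, several of these values moved when a single array was left out. Such an omission also leaves the array numbers unbalanced, so these moves hold the shift between numbers too. The Jak2 value in Stat3 KO became 0.35 without the untreated number 2 array and 2.09 without the untreated number 3 array. The Ptpn1 value ran from 0.68 to 1.79 in Stat3 KO and from 0.67 to 1.53 in Stat3 WT with an array left out, each lowest without the untreated number 2 array of that genotype. The Pias3 (93708_at) value in Stat3 WT became -0.40 without the number 2 OSM array and -2.07 without the number 3 OSM array. Jak2 in Stat3 WT moved less, from 1.28 to 1.81, as did Pias3 (93708_at) in Stat3 KO, from -1.51 to -1.13. With the block too, Jak2 ran from 0.64 to 1.80 in Stat3 KO and 1.13 to 1.96 in Stat3 WT. Ptpn1 then ran from 0.96 to 1.51 and 0.50 to 1.69, and Pias3 (93708_at) from -1.59 to -1.05 and -1.83 to -0.64, in the same order.

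No member passed limma's test in Stat3 KO, in Stat3 WT or in the difference of the 2, at 0 of 8 each. In Stat3 KO 0% of probe sets passed (138 at an unadjusted p under 0.05, 0 members), in Stat3 WT 0% (126, 0 members), and in the difference 0% (29, 0 members). With the block 0.0296%, 0.0148% and 0% passed, again with no member. In Ptpn2 the OSM difference was 1.0 in Stat3 KO and -0.06 in Stat3 WT, with a difference of 1.07 (interval -1.44 to 3.57). Without the block, these became 0.047 in Stat3 KO and 0.109 for the difference when the untreated number 2 Stat3 KO array was left out. Leaving out the untreated number 3 Stat3 KO array gave 1.96 and 2.02. With the block, the first omission gave 0.40 and 0.47, and the second gave 1.61 and 1.67.

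**Figure D3:**
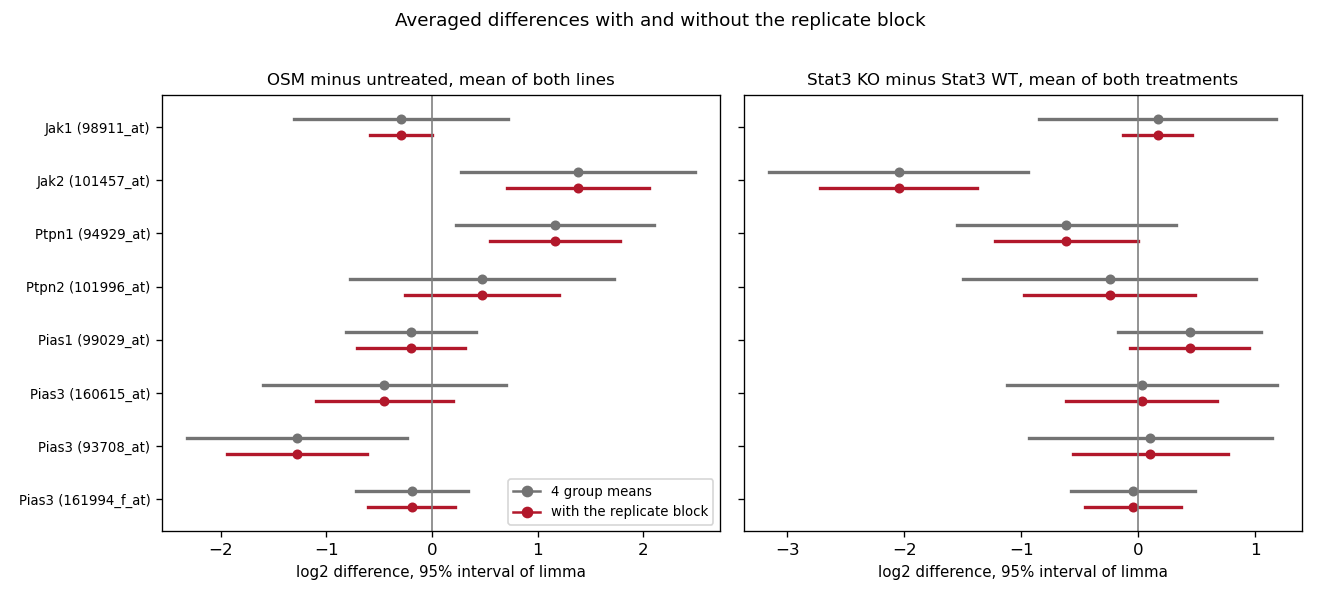
Averaged limma differences in log2 value for the 8 probe sets, with 95% intervals, without and with the array number as a block: OSM versus untreated, and Stat3 KO versus Stat3 WT. The Jak2 genotype difference of -2.05 has intervals of -3.15 to -0.95 without the block and -2.72 to -1.38 with it.

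Between genotypes Jak2 stood out from the other members. Averaged over OSM, Jak2 (101457_at) was 2.05 log2 units lower in Stat3 KO (difference -2.05, SE 0.45, 95% interval -3.15 to -0.95), a 4.14-fold difference, at 9.62 ± 1.07 in Stat3 KO and 11.67 ± 0.92 in Stat3 WT (SD, n = 4 each). Each SD pools both treatments and both array numbers, so it is not the spread of replicates. The highest Stat3 KO array read 10.71 and the lowest Stat3 WT array 10.78. It was lower in Stat3 KO in 4 of 4 pairs of the same number, at -2.43 and -2.0 with OSM and -2.63 and -1.14 untreated.

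The adjusted limma p of this Jak2 difference was 0.437 without the block and 0.0562 with it, so it passed in neither fit. Its unadjusted limma p was 0.00381 without the block. In the averaged comparison 0 of 8 members passed, against 0.0148% of all probe sets without the block and 0.429% with it. At an unadjusted p under 0.05 there were 388 probe sets without the block, Jak2 the member among them. Among all probe sets 0.429% had a lower averaged difference than Jak2. The rule of 4 differences of at least 0.5 in 1 direction took 1 of 8 members, Jak2, and 3.26% of all probe sets (1.81% lower). Groups that did not overlap were found in 1 of 8 members, Jak2, and in 5.45% of all probe sets (3.67% lower in Stat3 KO).

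Jak2 was lower in Stat3 KO both with OSM, at -2.21 (SE 0.64, interval -3.78 to -0.65, unadjusted limma p 0.0132), and untreated, at -1.89 (SE 0.64, interval -3.45 to -0.32, unadjusted limma p 0.0253). No member passed in either, at 0 of 8 each. With OSM 0.0148% of probe sets passed (243 at an unadjusted p under 0.05, 1 member) and untreated 0% (151, 1 member). With the block 0.104% passed with OSM and 0% untreated, with no member. The Jak2 group means were 10.23 ± 0.68 in Stat3 KO with OSM, 9.01 ± 1.23 in Stat3 KO untreated, 12.45 ± 0.37 in Stat3 WT with OSM and 10.90 ± 0.17 in Stat3 WT untreated (SD, n = 2 each). Stat3 KO with OSM stood above Stat3 KO untreated by less than their summed SDs, and below Stat3 WT untreated by less than theirs. These SDs hold the shift between numbers, and within numbers the OSM array was higher in both pairs of each genotype.

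The Stat3 KO arrays with OSM were left out in turn, number 3 being the array that stood apart in Stat3. In the fit without the block, the Jak2 genotype difference was -2.29 without number 3 and -1.81 without number 2. With the block it was -2.08 and -2.02, in the same order. The second Jak2 probe set, 96488_at, did not show this genotype difference. It read 2.89 and 3.38 in Stat3 KO with OSM, 5.12 and 3.23 in Stat3 KO untreated, 2.63 and 3.30 in Stat3 WT with OSM and 2.89 and 3.37 in Stat3 WT untreated. Only the untreated number 2 Stat3 KO array exceeded 5, and the arrays otherwise overlapped. For interferon-stimulated genes, which lie downstream of JAKs, the median averaged genotype difference was 1.93, against -0.03 over all probe sets. Of their values 19 of 19 were above 0, against 46.5% of all probe sets. Of these 0 passed without the block and 1 with it (Psmb8), against 0.0148% and 0.429% of all. Their median OSM difference was 1.28, against -0.02 over all probe sets. Of these values 17 of 19 were above 0, against 46.9% of all, and 0 passed in either fit, against 0% and 0.118%. The same genes were higher in number 3 arrays by a median of 3.84. Their part in the Jak2 differences was not tested.

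The other members differed less between genotypes. Ptpn1 gave -0.62 averaged over OSM, with pairs of -1.16 and 0.06 with OSM and -0.81 and -0.56 untreated. With the block its unadjusted limma p was 0.0492 and its adjusted p 0.284. In that fit 1176 of 6756 probe sets, 2 of them members, had an unadjusted p under 0.05. Pias1 gave 0.44 (interval -0.18 to 1.05), with all 4 pairs above 0, from 0.09 to 0.95. Jak1 gave 0.16 (interval -0.85 to 1.18), Ptpn2 -0.25 (interval -1.50 to 1.01), and the 3 Pias3 probe sets 0.03, 0.10 and -0.05 (160615_at, 93708_at and 161994_f_at). The arrays of each of these overlapped between genotypes.

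**Figure D4:**
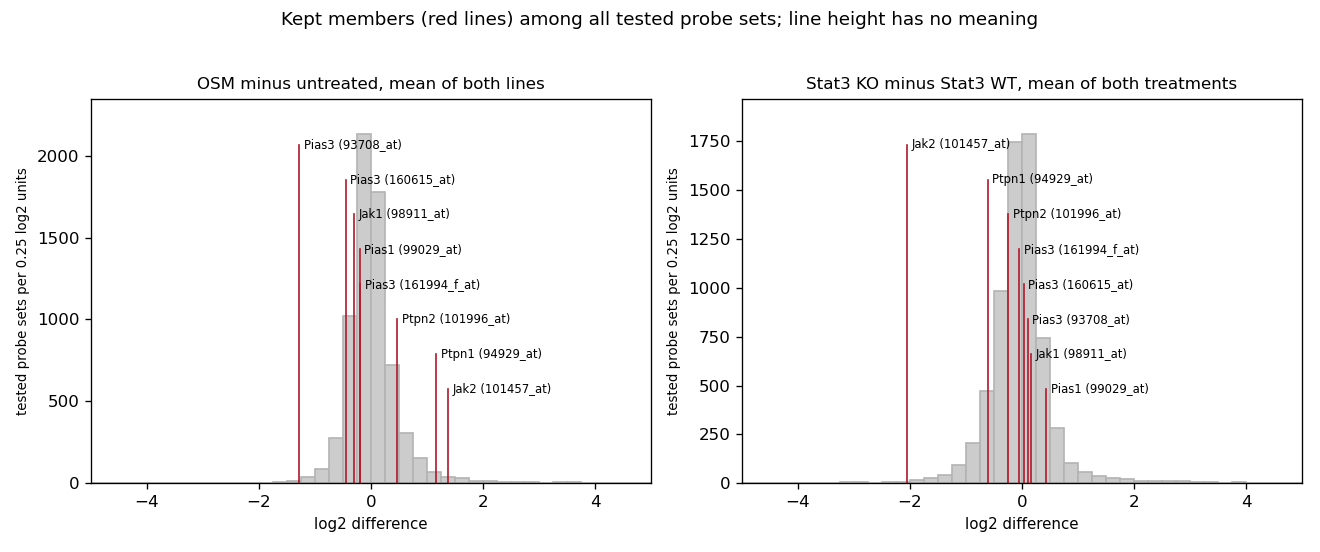
Number of probe sets (vertical axis) by averaged log2 difference for all 6756 probe sets tested, with the 8 member probe sets marked, for Stat3 KO versus Stat3 WT and for OSM versus untreated. Jak2 lies in the lower tail of the genotype differences at -2.05, and Pias3 (93708_at) in the lower tail of the OSM differences at -1.28.

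The dim probe sets gave no difference that their level can carry. Jak3, the kinase of the common gamma chain receptors of lymphoid cells, read 3.69 on the number 2 Stat3 WT array with OSM and 0.69 to 0.99 on the other 7. Tyk2, the kinase of interferon and IL-12 family receptors, read 2.98 to 3.16 on all 8 arrays. Ptpn6 (Shp1), a phosphatase of blood cells, read 3.39 to 3.82. Ptpn11 (Shp2), which gp130 recruits, read 4.42 and 3.74 in Stat3 KO with OSM and 3.29 to 3.75 on the other 6 arrays. A dim probe set does not show that a gene is silent, since GCRMA draws low signals toward a common value.

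**Figure D5:**
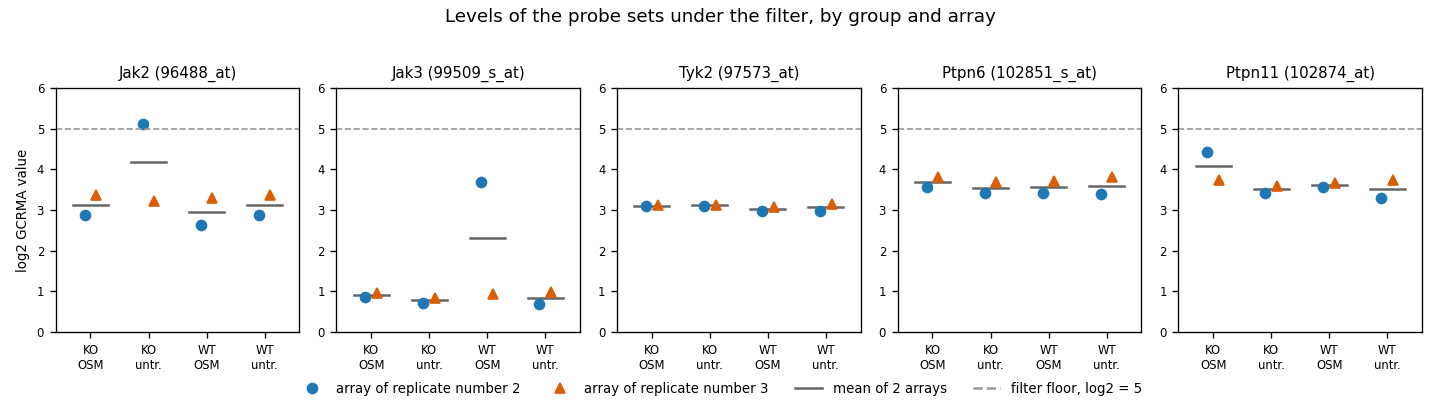
Log2 GCRMA value of the 5 dim probe sets on each of the 8 arrays, by group, with circles for number 2 and triangles for number 3 and the filter at 5. Tyk2 stays between 2.98 and 3.16, and single arrays stand above the rest in Jak2 (96488_at, 5.12) and Jak3 (3.69).

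Number 3 arrays were also compared with number 2 arrays. With the number as a term, number 3 was higher than number 2 by 0.95 in Jak1 (SE 0.12, adjusted limma p 0.00511), 0.87 in Jak2 (adjusted limma p 0.0489), 1.01 in Ptpn2 (adjusted limma p 0.0402) and 0.94 in probe set 160615_at of Pias3 (adjusted limma p 0.0349). These 4 of 8 members passed, against 41.1% of all probe sets (23.4% higher in number 3), so a call by number is common among all probe sets. The 4 number 3 arrays lay above the 4 number 2 arrays in 2 of 8 members, Jak1 and Ptpn2, against 22% of all probe sets. The median number difference was 0.82 over the 8 members and 0.09 over all probe sets. The interferon-stimulated list was higher in number 3 by a median of 3.84, and 14 of its 19 genes passed as higher in number 3. With each array centred on its median 1 of 8 members passed, against 40.8% of all probe sets. With any 1 array left out 1 to 2 of 8 passed, against 18.1 to 38.5%.

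Genes that work with the members were read as lists. Averaged over genotype, no gene of the 7 lists passed the OSM test in either fit. The SOCS list, inhibitors of JAKs that STATs induce, had the highest OSM median of the lists, 2.16 over 5 genes, 5 of them higher with OSM, against -0.02 over all probe sets. Within it Socs3 gave 4.30 (SE 0.85) and Socs1 4.20 (SE 0.90), with unadjusted limma p of 0.0022 and 0.00326. The gp130 receptors and ligands had a median of 0.68 with 5 of 6 higher, among them Osmr, the OSM receptor chain, at 2.73 (SE 1.05). The STAT factors had 0.15 (3 of 3), JAK-binding adaptors and receptor phosphatases 0.07 (3 of 5), partners of Shp2 and the Ras-ERK chain 0.12 (4 of 8), the SUMO pathway -0.02 (2 of 5) and other PTPN phosphatases 0.09 (5 of 8). The 6 member genes had 0.14 (3 of 6).

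For Stat3 KO against Stat3 WT, averaged over OSM, no gene of these lists passed without the block, and Stat3 itself passed as lower with it, at -2.65 (SE 0.18, adjusted limma p 0.0193). The medians were -0.17 for gp130 receptors and ligands (2 of 6 higher in Stat3 KO), -0.20 for STAT factors (0 of 3), -0.39 for SOCS proteins (2 of 5) and 0.06 for JAK-binding adaptors and receptor phosphatases (3 of 5). They were -0.16 for partners of Shp2 and the Ras-ERK chain (3 of 8), 0.05 for the SUMO pathway (3 of 5) and -0.22 for other PTPN phosphatases (3 of 8). The 6 member genes had -0.11 (3 of 6), against -0.03 over all probe sets. Socs1 gave 4.34, Socs3 -2.66 and Osmr -2.43, and none of these passed in either fit. With the block their adjusted limma p was 0.0613, 0.22 and 0.055.

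The genes whose pattern lay nearest to Jak2 were found by the root mean square difference of values over the 8 arrays, after each array number was centred. Among 6154 probe sets compared the nearest were Nfyb at 0.347, Nek6 at 0.496 and Fas at 0.50, with a median of 1.29 over all. Nfyb, a subunit of the CCAAT-binding factor, differed by -1.42 between genotypes and 1.34 with OSM. Nek6, a mitotic kinase, gave -1.74 and 0.77, and Fas, a death receptor, -1.72 and 1.15, in the same order. Jak2 was named for this, and a second rule, the widest range of centred values among the members, gave Jak2 as well, at 4.04.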

How the data were processed

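Per the labels' protocols, the authors hybridised biotin-labelled total RNA to 8 arrays. The authors deposited log2 values, 1 per probe set, made with affy and GCRMA, per the submitters' processing notes. No source used here says whether all arrays were normalised together. Values ran from -1.16 to 17.18, and 66 of the 12488 probe sets are controls and were set aside. Group and number come from the titles, because every description mentions OSM. The labels do not say whether the arrays of a group are separate cultures, and p-values therefore reflect only array-to-array spread, possibly technical. Without the block this spread also holds the shift between array numbers. For the averaged OSM difference of Jak2 the SE was 0.45 without the block and 0.27 with it.

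Two-sided limma tests (version 3.58.1, R 4.3.3; lmFit, eBayes with an intensity trend) used 4 group means over the 8 arrays, which leaves 4 residual degrees of freedom. P-values were Benjamini-Hochberg adjusted across 6756 probe sets, those with a log2 value of at least 5 on at least 2 arrays, and an adjusted p under 0.05 passed. The 7 comparisons were Stat3 KO versus Stat3 WT untreated, with OSM and averaged, OSM versus untreated in each genotype and averaged, and the difference of OSM responses. The array number entered as a block in a second fit, with 3 residual degrees of freedom. Number 3 minus number 2 differences correlated at 0.589 to 0.9106 between groups, so the numbers were taken to pair the arrays, on the evidence of the data. The correlation was 0.91 within Stat3 WT, 0.79 within Stat3 KO and 0.589 to 0.664 between genotypes. Pairs across genotypes are thus less alike in their number shift, while the block fits 1 shift for all groups. The rule for named genes took all members and allowed list genes that passed in a comparison. For likeness it took the 3 genes nearest to Jak2 and to the member with the widest centred range, which was also Jak2. Socs1 and Socs3 passed in no comparison and were named outside this rule. Other settings tried were the filter, the trend, robust fitting, quantile scaling, median centring, a floor, other probe sets of a gene and each array left out. The limma script was tested on simulated data. Levels of different probe sets were not compared as a result. They served to pick the probe set with the highest mean for each gene of the lists. The leukocyte level is a sum over probe sets. The precision is limited by 2 arrays per group.

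The members and gene lists were chosen with earlier results of these data known. Gene names come from the platform annotation, and promoter windows from RefSeq build GRCm38.p6. No source used here names a genome build for the probe sets.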

Additional observations from a re-analysis of the deposited data

How the results depend on the processing

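Over the 7 comparisons, 1453 member values were tested under other settings. None passed at an adjusted p under 0.05, and the lowest adjusted limma p was 0.0507, for Jak2 between genotypes with block and quantile scaling. With 2 arrays per group the median standard error of the averaged genotype difference was 0.34 without the block and 0.20 with it. With an array left out, Jak2 stayed lower in Stat3 KO at -2.48 to -1.62 (block: -2.34 to -1.76), while OSM values ran from 0.95 to 1.82 for Jak2, 0.89 to 1.44 for Ptpn1 and -1.69 to -0.86 for Pias3 (93708_at).

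Counts of probe sets called moved as follows, with the cause not tested. Leaving out an array together with the block was added after the data were seen. For Stat3 KO versus Stat3 WT with OSM the 1 call became 0 without the trend, with robust fitting, quantile scaling, centring, a floor at 5 or only the groups compared, 7 with the replicate block, 5 with block and quantile scaling, and with an array left out 0 to 1, or 0 to 2 when the block was used too. Averaged over OSM the 1 call became 3 without the filter, 29 with the block and 27 with block and quantile scaling. With an array left out it became 0 to 1, and with both the block and an array left out 0 to 5, against the 29 of the block alone. For OSM averaged over genotype the 0 became 1 without the filter, with quantile scaling or with the floor, 2 with centring, 8 with the block and 10 with block and quantile scaling. It stayed 0 with an array left out, and was 0 to 8 with both the block and an array left out. OSM in Stat3 KO gave 1 with the floor, 2 with the block, 4 with block and quantile scaling, 0 with an array left out and 0 to 1 with both the block and an array left out. OSM in Stat3 WT gave 1 with the block, alone or with quantile scaling. Untreated Stat3 KO versus Stat3 WT gave 0 with an array left out and 0 to 1 with both the block and an array left out. By array number 7210 passed without the filter and 1223 to 2599 with an array left out (18.1 to 38.5%), and of the members 2 with quantile scaling, 1 with centring and 1 to 2 with an array left out.

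The second Jak2 probe set lay below the filter, with 1 array above 5, so its values carry no direction. It gave 1.04 and 0.17 for Stat3 KO versus Stat3 WT untreated and with OSM (0.61 averaged), -1.04 and -0.17 for OSM in Stat3 KO and Stat3 WT (-0.60 averaged), and -0.062 for the number. Directions turned for the following values, none of which passed. For the genotype difference of Pias3 (160615_at), probe set 161994_f_at gave -0.046 and centring -0.015, and centring gave 0.0015 for Ptpn2 with OSM in Stat3 WT. With an array left out, genotype differences ran from -0.11 to 0.44 for Jak1, -0.72 to 0.23 for Ptpn2, and -0.42 to 0.48, -0.32 to 0.52 and -0.12 to 0.032 for Pias3 (160615_at, 93708_at and 161994_f_at). With the block too, the last ran from -0.14 to 0.050. With an array left out, OSM differences ran from -0.0075 to 0.95 for Ptpn2 (-0.60 to 0.47 in Stat3 WT alone) and -0.90 to 0.0036 for Pias3 (160615_at). For Pias1 they ran from -0.31 to -0.084, and from -0.40 to 0.0035 with the block too. The difference of OSM responses ran from -1.196 to 0.54 for Jak2, -0.42 to 0.69 for Ptpn1 (-0.46 to 0.74 with the block too) and -0.92 to 0.75 for Pias3 (93708_at).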
